A study of Mus musculus with 2 samples.

Results

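10 of the 32286 features counted in vagus nerve ganglia of mice are described here as the brown and white adipocyte genes: *Ucp1*, *Cidea*, *Ppargc1a*, *Pparg*, *Plin1*, *Adipoq*, *Cidec*, *Fabp4*, *Lipe* and *Lep*. They were taken from the feature list by gene symbol, and all 10 symbols were found there with a single identifier each. Their levels were measured in nuclei that carried other adipocyte markers and in all other nuclei, and the detection of *Ucp1* together with the other 9 genes was counted nucleus by nucleus.

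Single-nucleus RNA sequencing (snRNA-Seq) was run on a pool of 14 ganglia from 7 female mice and a pool of 16 ganglia from 8 male mice, each pool giving 1 library. All animals were C57BL/6J with the genotype Rosa26-floxed-STOP-Cas9-eGFP (named Rosa26-eGFPf in the extraction notes), 8 to 9 weeks old when purchased, fed standard chow diet and given AAVrg-Cre, a retrogradely transported virus that carries Cre recombinase, into the liver 4 weeks before collection. Both groups therefore carried the same Cas9-eGFP allele and the same virus, and no group without the virus is analysed here. Because each sex was 1 pooled library, sex and library cannot be told apart, no test between the sexes was possible, and every interval given below is a 95% interval that covers counting error only.

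Adipocytes store triglyceride in lipid droplets and release it as fatty acids. White adipocytes hold a single large droplet and secrete hormones such as leptin and adiponectin, whereas brown and beige adipocytes hold many small droplets and many mitochondria, in which uncoupling protein 1 turns the proton gradient into heat. Fat cells are known to lie in the epineurium, the connective tissue sheath around peripheral nerves.

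The female library held 3791 nuclei and 17435300 unique molecular identifiers (UMIs, 1 for each captured transcript), with a median of 2381 UMIs per nucleus and a range of 980 to 124136. The male library held 4923 nuclei and 27529730 UMIs, with a median of 2658 per nucleus and a range of 1004 to 121725. Clusters were rebuilt from the counts without the 10 genes, and the tissue's sensory neurons were present as neuron-like nuclei, 674 of them female and 1611 male. In all, 8 cell barcodes occurred in both libraries, none of them in an adipocyte-like nucleus. *Xist* gave 13424 UMIs in the library labelled female and 7 in the male, and the Y-linked *Uty* gave 1 and 4677.

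The adipocyte-like class held 129 nuclei, 94 female and 35 male. Their share was 2.48% (2.01 to 3.03) among female and 0.711% (0.496 to 0.987) among male nuclei, and the medians were 3544 UMIs per female and 3039 per male nucleus. The class was set by 20 adipocyte markers that hold none of the 10 genes, 19 of which were at least 2-fold higher there than in all other nuclei of each library, with the fatty acid synthase gene *Fasn* as the exception. It came from a single cluster that also held skeletal muscle and mural cell markers, so that cluster was divided again, and 4 of its sub-clusters were adipocyte-like. The libraries took up different sub-clusters: 34, 30 and 30 of the female nuclei lay in sub-clusters 1, 2 and 3, while 25 of the 35 male nuclei formed sub-cluster 4, which held 0 female nuclei. Markers of other cell types also gave UMIs in the class, where 10 neuron markers summed to 11.7 UMIs per 10000 in female and 18.02 in male class nuclei, against 36.8 and 46.3 in all other nuclei. Endothelial, mural and skeletal muscle markers were instead higher in the female class, at 5.32, 2.24 and 2.15 against 3.44, 1.39 and 1.86 in all other female nuclei. In the male library the same sums were 1.83, 1.30 and 0.305 against 2.13, 1.01 and 0.494. The remaining lists of other cell types were lower in the female class than in all other female nuclei.

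Coordinates of the 10 genes are those of mm10 with the GENCODE vM21 annotation. *Ucp1* (ENSMUSG00000031710) lies at chr8:83290352-83298452 on the plus strand, *Plin1* (ENSMUSG00000030546) at chr7:79720218-79732903 on the minus strand, *Adipoq* (ENSMUSG00000022878) at chr16:23146536-23158028 on the plus strand, *Fabp4* (ENSMUSG00000062515) at chr3:10204088-10208576 on the minus strand and *Lep* (ENSMUSG00000059201) at chr6:29060220-29073877 on the plus strand. *Pparg* (ENSMUSG00000000440) at chr6:115360951-115490399 and *Cidec* (ENSMUSG00000030278) at chr6:113424634-113435760 lie on the same chromosome, on the plus and the minus strand. *Ppargc1a* (ENSMUSG00000029167) lies at chr5:51454250-51567726 and *Lipe* (ENSMUSG00000003123) at chr7:25379527-25398710, both on the minus strand, and *Cidea* (ENSMUSG00000024526) is given by its identifier alone. Introns were counted, so the values of genes that overlap others are less certain: *Ppargc1a* overlaps *Gm42614*, *Gm42615* and *Gm43605* on its own strand and *Gm42613* on the other, and *Cidea*, *Pparg* and *Lipe* each overlap a gene of the opposite strand (*B430212C06Rik*, *Gm44079* and *4732471J01Rik*).

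The promoters of *Ucp1*, *Plin1* and *Pparg* are shown because these genes carry the contrasts described below: *Ucp1* differed most between the libraries, *Plin1* was the most confined to the class, and *Pparg* encodes the nuclear receptor that directs adipocyte differentiation. Each window runs 5′ to 3′ from 250 bases before to 50 bases after a transcription start in RefSeq, on GRCm38.p6 (the mm10 assembly), with chr8:83290098-83290397 on the plus strand for *Ucp1*, chr7:79732727-79733026 on the minus strand for *Plin1* and chr6:115362099-115362398 on the plus strand for 1 of the 3 *Pparg* starts. Capitals mark matches on either strand to TATAAA, the letters of the TATA box, to CCAAT, the letters of the CCAAT box, to AGGTCA, the hexamer that many nuclear receptors bind in repeats, and to TGACGTCA, the palindromic cyclic AMP response element, none of which contains another.
Ucp1: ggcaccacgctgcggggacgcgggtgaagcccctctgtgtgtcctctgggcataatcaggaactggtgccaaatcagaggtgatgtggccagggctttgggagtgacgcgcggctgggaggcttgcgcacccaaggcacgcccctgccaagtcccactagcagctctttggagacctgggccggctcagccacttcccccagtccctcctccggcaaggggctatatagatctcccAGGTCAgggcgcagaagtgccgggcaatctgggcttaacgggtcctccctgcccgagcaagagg
Plin1: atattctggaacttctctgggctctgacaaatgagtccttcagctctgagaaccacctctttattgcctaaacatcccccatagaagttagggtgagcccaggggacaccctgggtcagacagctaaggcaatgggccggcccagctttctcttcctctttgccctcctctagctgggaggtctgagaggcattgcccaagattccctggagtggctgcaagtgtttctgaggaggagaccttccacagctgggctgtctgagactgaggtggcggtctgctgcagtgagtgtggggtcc
Pparg: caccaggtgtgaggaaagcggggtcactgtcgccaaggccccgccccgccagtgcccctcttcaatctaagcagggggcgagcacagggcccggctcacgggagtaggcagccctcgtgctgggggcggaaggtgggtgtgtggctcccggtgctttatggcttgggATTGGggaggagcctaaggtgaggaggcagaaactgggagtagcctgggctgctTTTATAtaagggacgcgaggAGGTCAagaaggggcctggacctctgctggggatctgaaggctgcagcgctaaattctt
The *Ucp1* window held AGGTCA at -14, counted from the start. The *Pparg* window shown held the reverse complement of CCAAT at -83, the reverse complement of TATAAA at -29 and AGGTCA at -9, and the *Plin1* window held no match to these letters. It had the most matches of the *Pparg* windows. Of those not shown, chr6:115360894-115361193 held AGGTCA at -28, and chr6:115421816-115422115 held CCAAT at -144 and -22. Which *Pparg* start these nuclei used was not tested. RefSeq windows were found for 8 of the 10 genes, 12 windows in all, of which 3 held AGGTCA, 3 CCAAT, 1 TATAAA and 0 TGACGTCA. Over all 32851 windows the shares were 16.3%, 37.4%, 13.6% and 1.79%. A match of such short letters is a description of the window and not a binding site.

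Of the 10 genes, 9 were higher in the adipocyte-like nuclei than in all other nuclei, by at least 2-fold in each library. Across all genes with at least 20 UMIs the same held for 2725 of 19305 genes, 14.1%, and the median log2 ratio of the 9 genes was 4.46 for female and 6.40 for male nuclei, against 0.07 and 0.51 over all genes. The 10 genes had no part in the clustering, but their direction could be foreseen, because the class was chosen by other adipocyte markers. The tenth gene, *Lep*, which encodes the hormone leptin, gave 4 UMIs in all, 3 of them female and 1 male, and was too sparse to compare. The 94 female adipocyte-like nuclei held 0 *Lep* UMIs in 419358, which allows a level of up to 0.0715 per 10000, and the 35 male nuclei held 1. *Lep* was thus not detectable at this depth in the female nuclei.

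**Figure D1:**
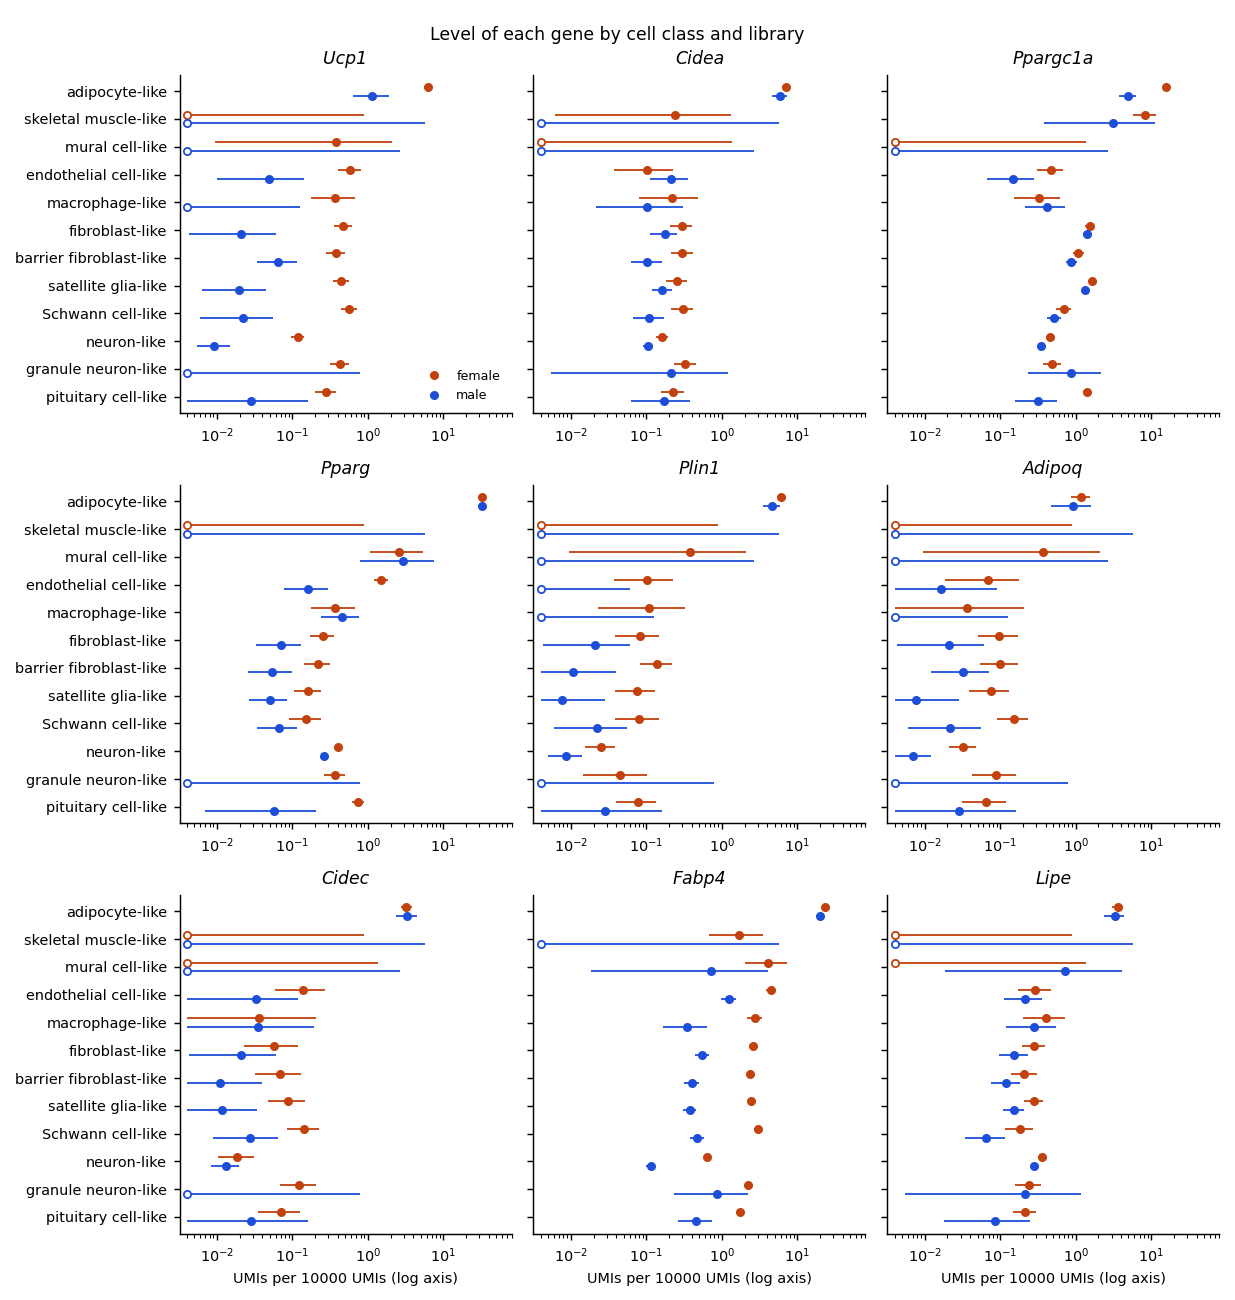
Levels of 9 adipocyte genes in each nucleus class (rows), as UMIs per 10000 UMIs of the class on a log axis, with female and male libraries in separate colours, exact Poisson 95% intervals as bars and open circles at the left edge for 0 UMIs. All 9 genes were highest in the adipocyte-like class in both libraries, *Ucp1* at 6.20 in female and 1.15 in male nuclei.

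*Ucp1*, the uncoupling protein of heat-producing fat, was present in the adipocyte-like nuclei of both libraries and was far higher in the female ones. Levels are given as UMIs of a gene per 10000 UMIs of the nuclei concerned. The 94 female nuclei held 260 *Ucp1* UMIs, a level of 6.20 (5.469 to 7.001), and the 35 male nuclei held 15, a level of 1.15 (0.641 to 1.89). Single female nuclei held 0 to 21 *Ucp1* UMIs with a median of 2, and single male nuclei held 0 to 4 with a median of 0. A *Ucp1* UMI was seen in 57 of 94 female nuclei, 60.6% (50.02 to 70.6), and in 7 of 35 male nuclei (8.44% to 36.9%). With every nucleus thinned to 1000 UMIs the shares were 38.3% and 8.57%.

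*Ucp1* UMIs were also found outside the class, at a far lower level, and in the female library in every class but the skeletal muscle-like nuclei. A *Ucp1* UMI was seen in 11.3% of the 674 female neuron-like nuclei and in 11.6% of the 544 female Schwann cell-like nuclei, cell types that are not known for this gene. The shares were alike although the neuron-like nuclei were deeper, with a median of 5902 UMIs against 1774. In the male library the same shares were 1.06% of 1611 and 0.572% of 699 nuclei. The female level outside the class was 0.282 per 10000, 4.55% of the level inside (3.90 to 5.31), and the male level outside was 0.0164, 1.43% of the level inside (0.785 to 2.77). The class was therefore above the rest of its own library in both sexes, and the female adipocyte-like nuclei, with a median of 3544 UMIs, stood above the 3697 other female nuclei, with a median of 2364.

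The number of *Ucp1* UMIs in a nucleus separated the class from the rest more clearly than detection did. Of the 57 female adipocyte-like nuclei with *Ucp1*, 48 held 2 or more UMIs and 20 held 5 or more. Of the 412 other female nuclei with *Ucp1*, 369 held a single UMI (89.6%), 43 held 2 or more and 4 held 5 or more. In the male library 5 of 7 adipocyte-like nuclei with *Ucp1* held 2 or more UMIs, against 1 of 44 other nuclei.

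*Cidea* and *Ppargc1a*, which are also linked to brown fat, differed from each other in how far they followed the class. *Cidea* encodes a lipid droplet protein that is abundant in brown adipocytes, and *Ppargc1a* encodes PGC-1α, a coactivator of mitochondrial biogenesis in many tissues. *Cidea* was at 7.15 per 10000 (6.37 to 8.011) in the female and 5.88 (4.64 to 7.35) in the male class, and 71 of 94 and 26 of 35 nuclei had a UMI. Outside the class its level was 0.216 and 0.118, and the next class in order was granule neuron-like, at 0.328 in the female library. *Ppargc1a* was at 15.8 (14.7 to 17.1) in the female and 4.89 (3.76 to 6.24) in the male class, and 72 of 94 and 24 of 35 nuclei had a UMI.

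*Ppargc1a* was the least confined of the brown fat genes in the male library, and was close to *Ucp1* in the female. The skeletal muscle-like nuclei came next, at 8.20 per 10000 (5.68 to 11.5) from 34 UMIs in 15 female nuclei, and at 3.14 (0.380 to 11.3) from 2 UMIs in 3 male nuclei, where the interval overlapped that of the adipocyte-like class. Satellite glia-like nuclei, at 1.63 for female and 1.34 for male nuclei, and fibroblast-like nuclei, at 1.54 and 1.42, followed in a different order in each library. Outside the class as a whole the *Ppargc1a* level was 5.14% (4.68 to 5.65) of that inside for female and 11.1% (8.65 to 14.5) for male nuclei. For *Ucp1* the same values were 4.55% (3.90 to 5.31) and 1.43% (0.785 to 2.77), so the intervals overlapped in the female library only.

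*Pparg*, which encodes the nuclear receptor that drives adipocyte differentiation, was at nearly the same level in both libraries. Its level in the class was 32.7 per 10000 (31.0 to 34.5) in female and 32.1 (29.1 to 35.3) in male nuclei. Single female nuclei held 0 to 84 UMIs with a median of 11, and single male nuclei held 0 to 49 with a median of 9. *Pparg* was absent from 12 of 94 female and 4 of 35 male nuclei. Mural cell-like nuclei came next at 2.62 from 7 UMIs and 2.92 from 4 UMIs, and the female endothelial cell-like nuclei were at 1.51 (1.21 to 1.86) against 0.163 (0.0781 to 0.2996) in the male ones.

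*Plin1* and *Cidec*, whose proteins coat lipid droplets and help them fuse, were rarely seen outside the class. *Plin1* encodes perilipin 1, which guards the droplet against lipases, and was at 6.15 per 10000 (5.42 to 6.95) in the female and 4.66 (3.56 to 5.98) in the male class. Its level in all other nuclei was 0.0570 and 0.0102, which is 0.927% and 0.219% of the level inside. *Cidec* was at 3.24 (2.72 to 3.84) and 3.28 (2.38 to 4.42) in the class and at 0.0570 and 0.0150 outside, 1.76% and 0.456% of the level inside. Among the 9 genes *Plin1* had the lowest such percentage in each library.

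*Lipe* and *Fabp4*, which release and carry fatty acids inside the cell, were seen more widely, *Lipe* in neuron-like and other nuclei of both libraries and *Fabp4* throughout the female library. *Lipe* encodes hormone-sensitive lipase and was at 3.60 per 10000 (3.05 to 4.22) in the female and 3.28 (2.38 to 4.42) in the male class. Neuron-like nuclei held 288 and 520 *Lipe* UMIs at levels of 0.359 and 0.283, against 0.297 and 0.234 in all nuclei outside the class. Most *Lipe* UMIs of the male library lay in neuron-like nuclei, which held 66.8% of all its UMIs. The next class in order was macrophage-like in the female library, at 0.403 from 11 UMIs, and mural cell-like in the male, at 0.730 from 1 UMI. The level outside the class was 8.24% and 7.13% of that inside. *Fabp4* encodes a fatty acid carrier of adipocytes, macrophages and capillary endothelium, and was at 23.1 (21.7 to 24.6) and 20.2 (17.8 to 22.7). The endothelial cell-like nuclei came next with 4.42 (3.89 to 4.99) for female and 1.24 (0.975 to 1.55) for male nuclei. A single female nucleus of the class held 180 of the 970 *Fabp4* UMIs, and without it the female level was 19.9.

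*Adipoq*, which encodes the hormone adiponectin, was sparse but followed the class. It gave 49 UMIs in female and 12 in male class nuclei, levels of 1.17 (0.864 to 1.54) and 0.916 (0.473 to 1.60), and 59 of 94 female and 26 of 35 male nuclei had none. In the female library the next class, mural cell-like nuclei, rested on 1 UMI and its interval overlapped that of the adipocyte-like class. The other class orders whose top interval overlapped the next were those of *Ppargc1a* and *Lipe* in the male library. In the 15 female and 3 male skeletal muscle-like nuclei, *Ucp1*, *Pparg*, *Plin1*, *Adipoq*, *Cidec* and *Lipe* gave 0 UMIs in 47849, where 3 UMIs would be a level of 0.627 per 10000.

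**Figure D2:**
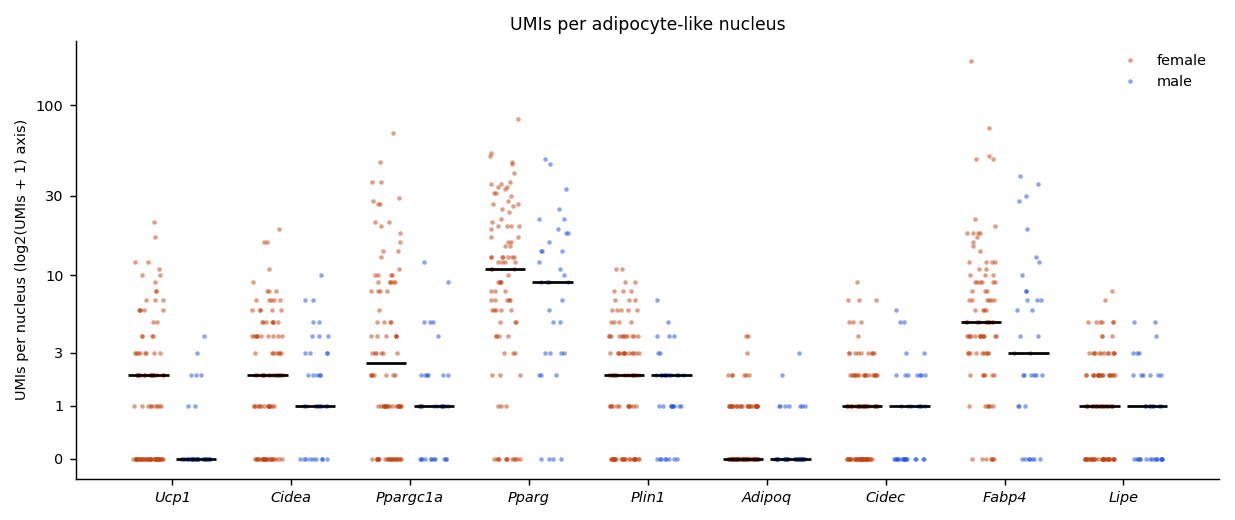
UMIs of each gene in single adipocyte-like nuclei, with each point a nucleus and the 94 female and 35 male nuclei in separate colours. Female *Ucp1* reached 21 UMIs with a median of 2 and male *Ucp1* reached 4 with a median of 0, while *Pparg* had medians of 11 and 9.

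Most adipocyte-like nuclei carried several of the genes at once. Female class nuclei had a UMI of 1 to 9 of the 10 genes with a median of 7, and male class nuclei had 0 to 9 with a median of 6. At least 5 genes were seen in 80 of 94 female and 25 of 35 male class nuclei. Outside the class this held for 41 of 3697 female nuclei (1.11%) and 4 of 4888 male nuclei (0.0818%), and these were deep nuclei, with medians of 16329 and 70712 UMIs, 18 of the 41 and all 4 of them neuron-like.

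Of the 9 genes that could be compared between female and male adipocyte-like nuclei, *Ucp1* and *Ppargc1a* differed by at least 2-fold and the other 7 did not. *Ucp1* was 5.41-fold higher in the female nuclei (3.22 to 9.81) and *Ppargc1a* was 3.24-fold higher (2.505 to 4.26), whereas *Pparg* was at 1.02-fold (0.914 to 1.14) and *Cidec* at 0.988-fold (0.696 to 1.43). *Cidea* was at 1.22-fold (0.944 to 1.58), *Plin1* at 1.32-fold (0.996 to 1.78), *Adipoq* at 1.28-fold (0.669 to 2.63), *Lipe* at 1.10-fold (0.777 to 1.58) and *Fabp4* at 1.15-fold (1.001 to 1.32). The interval of *Ucp1* lay above those of all 7, and that of *Ppargc1a* above all of them but *Adipoq*. Of the 9 genes, 2 were at least 2-fold higher in the female nuclei and 0 in the male, against 8.76% and 9.18% of the 5754 genes with at least 20 UMIs in the class. The median log2 ratio was 0.28 for the 9 genes and -0.01 for all genes.

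**Figure D3:**
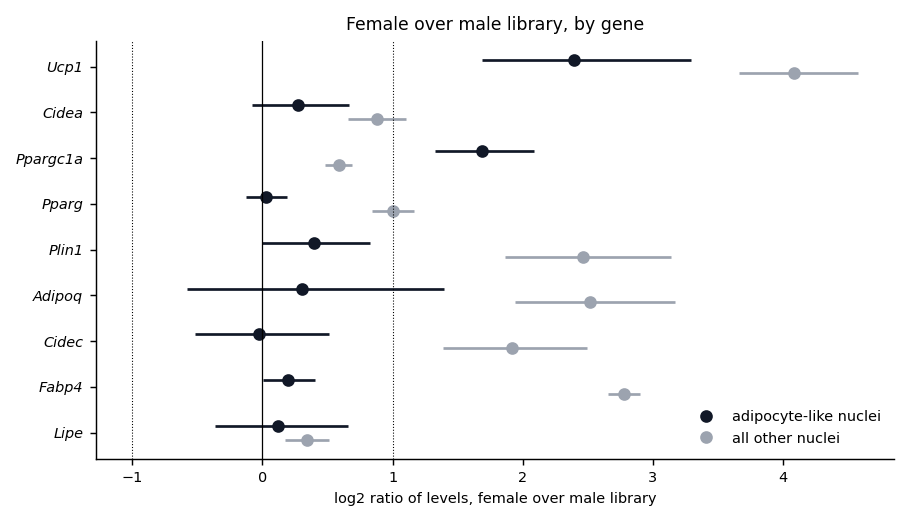
Female over male ratio of each gene on a log2 axis, within the adipocyte-like class and in all other nuclei, with exact 95% intervals for the counts as bars. Within the class *Ucp1* (2.39) and *Ppargc1a* (1.69) stood apart from the other genes, and outside it *Ucp1* (4.09) and *Fabp4* (2.78) had the highest ratios.

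These ratios had no replicate check, and several measures moved with them. Outside the class *Ucp1* was 17.2-fold higher in the female library (12.6 to 23.9) and *Fabp4* 6.86-fold (6.30 to 7.48), while *Ppargc1a* was 1.4997-fold higher (1.39 to 1.61). With the level of all other nuclei of the same library taken off, the class ratios were 5.24-fold for *Ucp1*, 3.46-fold for *Ppargc1a* and 1.01-fold for *Pparg*. Without the nucleus with most UMIs of the gene in each library the ratio was 6.93-fold for *Ucp1* and 3.41-fold for *Ppargc1a*. Male *Ucp1* rested on 15 UMIs in 7 nuclei.

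Markers of other cell types in the class also differed between the libraries. The 8 endothelial markers summed to 5.32 UMIs per 10000 in the female and 1.83 in the male class, and 7 skeletal muscle markers to 2.15 and 0.305, with 2 of the 7 at 0 in the female and 6 of 7 in the male nuclei. The muscle signal lay in sub-cluster 1, where *Ttn*, the giant sarcomere protein, gave 43 UMIs in the female nuclei. In female sub-clusters 2 and 3, where *Ttn* gave 0 and 1 UMI, *Ppargc1a* was at 14.0 (11.2 to 17.2) and 19.3 (17.03 to 21.9) per 10000, and in male sub-cluster 4 it was at 6.12 (4.45 to 8.22). The part of muscle, endothelial and other RNA in the differences between the libraries was not tested.

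Sub-clusters were built without the 10 genes and still differed in them. In female nuclei *Ucp1* was at 5.03 (4.15 to 6.05) in sub-cluster 1, 5.27 (3.65 to 7.37) in sub-cluster 2 and 8.67 (7.15 to 10.4) in sub-cluster 3, against 1.25 (0.572 to 2.38) in male sub-cluster 4. Sub-cluster 3 also had the highest female *Pparg*, 52.0 (48.2 to 56.1) against 22.8 (20.8 to 24.8) in sub-cluster 1, and the highest *Cidea*, 9.36 (7.78 to 11.2) against 6.28 (5.29 to 7.40). Sub-cluster 2, with the lowest median depth at 2104 UMIs, had the highest *Cidec* at 6.05 (4.30 to 8.27) and *Lipe* at 6.36 (4.56 to 8.62), while sub-cluster 1, with a median of 5262 UMIs, had 2.09 and 2.58. *Fabp4* did not separate the female sub-clusters, at 24.8, 21.9 and 20.8. The 8 male nuclei of sub-cluster 1 held 2 *Ucp1* UMIs, a level of 0.419 (0.0508 to 1.51), and *Ppargc1a* there was at 1.68 (0.724 to 3.30). The order of the libraries was thus the same within sub-cluster 1. Sub-clusters 2 and 3 held 1 male nucleus each, with 2 *Ucp1* UMIs in 2144 and 2 in 9233. The first lay above and the second below the female level of its sub-cluster, and 1 nucleus is too few to compare.

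Female adipocyte-like nuclei with *Ucp1* more often had UMIs of most other genes than those without it, but they were also deeper. The 57 nuclei with *Ucp1* had a median of 3875 UMIs and the 37 without it 2923. *Cidea* was seen in 87.7% of the former and 56.8% of the latter, *Ppargc1a* in 89.5% and 56.8%, *Pparg* in 96.5% and 73.0% and *Fabp4* in 98.2% and 83.8%. *Plin1* was seen in 77.2% (64.2 to 87.3) and 67.6% (50.2 to 82.0), and *Lipe* in 64.9% and 67.6%. *Adipoq* went the other way, at 31.6% (19.9 to 45.2) and 45.9% (29.5 to 63.1), with intervals that overlapped.

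**Figure D4:**
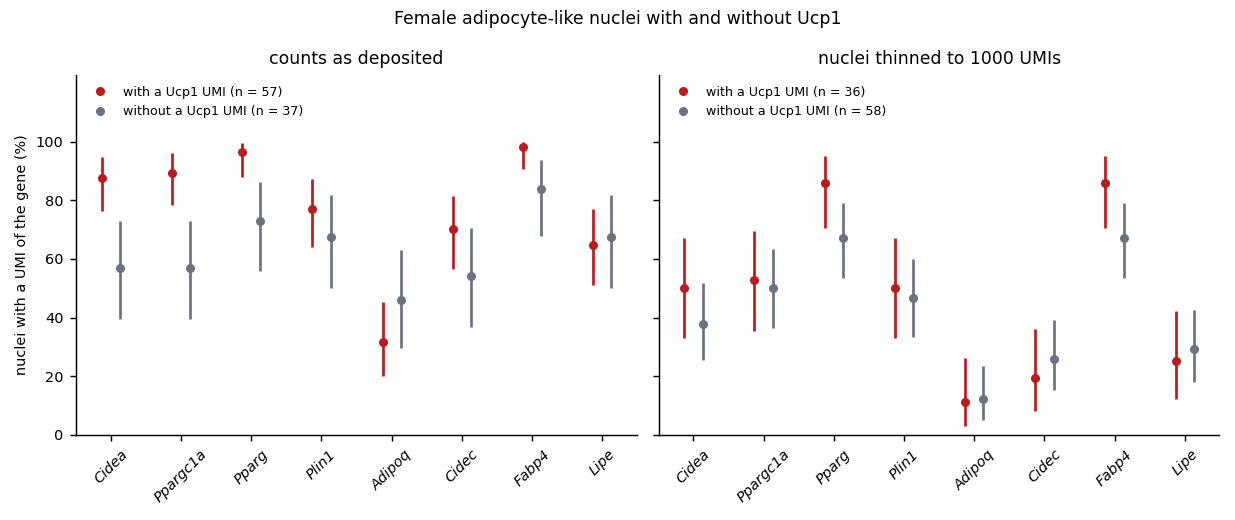
Share of female adipocyte-like nuclei with a UMI of each other gene, among nuclei with and without a *Ucp1* UMI, as deposited and after thinning to 1000 UMIs, with exact binomial 95% intervals. As deposited *Cidea* was seen in 87.7% against 56.8% of nuclei, and after thinning in 18 of 36 against 22 of 58.

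After thinning to 1000 UMIs, 36 nuclei had *Ucp1* and 58 did not, so nuclei that lost their *Ucp1* UMIs changed group. The gaps for *Cidea*, *Ppargc1a*, *Pparg* and *Plin1* narrowed, while that for *Fabp4* did not. How far the change of groups and the lower depth each narrowed the gaps was not tested. *Cidea* was seen in 18 of the 36 and 22 of the 58 nuclei, *Ppargc1a* in 19 and 29 and *Plin1* in 18 and 27. *Cidec* changed order, from 70.2% with *Ucp1* and 54.1% without it as deposited to 19.4% and 25.9%, or 7 and 15 nuclei. Its intervals overlapped before and after thinning. *Pparg* and *Fabp4* then had the widest gaps, each at 86.1% (70.5 to 95.3) against 67.2% (53.7 to 79.0), whereas *Ppargc1a* and *Cidea* had the widest gaps as deposited. The mean number of other genes seen was 6.16 against 5.05 as deposited and 3.81 against 3.36 after thinning. All 57 female and all 7 male class nuclei with *Ucp1* held a UMI of at least 1 other gene of the set, as did all 37 female and 27 of 28 male nuclei without it.

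In the male library 7 class nuclei had *Ucp1*, and every one of them also had *Cidea*, *Pparg*, *Plin1* and *Fabp4*. Among the 28 male nuclei without *Ucp1*, 19 had *Cidea*, 24 *Pparg*, 20 *Plin1* and 21 *Fabp4*. The 7 nuclei were deeper, with a median of 4414 UMIs against 2933.5.

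Levels per 10000 UMIs of the same nuclei differed by gene, higher with *Ucp1* for *Fabp4* and *Pparg* and lower for *Lipe*. In female class nuclei *Fabp4* was at 26.7 (24.9 to 28.7) with *Ucp1* and 14.1 (12.02 to 16.4) without it, and leaving out the nucleus with 180 *Fabp4* UMIs gave 22.4 with *Ucp1*. *Pparg* was at 35.4 (33.3 to 37.6) and 25.9 (23.1 to 28.9). *Lipe* was lower in the nuclei with *Ucp1*, at 2.93 (2.35 to 3.62) against 5.27 (4.05 to 6.75), and *Cidec* was at 2.77 (2.20 to 3.43) against 4.44 (3.32 to 5.80), with intervals that met. Intervals overlapped for *Cidea*, at 7.67 (6.71 to 8.73) and 5.86 (4.57 to 7.40), for *Plin1*, at 6.04 (5.19 to 6.98) and 6.45 (5.09 to 8.06), and for *Ppargc1a*, at 16.4 (14.99 to 17.9) and 14.4 (12.3 to 16.7). *Adipoq* was at 0.900 (0.593 to 1.31) with *Ucp1* and 1.84 (1.15 to 2.79) without it, again with overlap.

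The male library repeated the order for *Fabp4* and *Pparg* and not for *Lipe*, *Cidec*, *Adipoq* or *Plin1*. In male class nuclei *Fabp4* was at 36.6 (30.4 to 43.6) with *Ucp1* and 14.5 (12.2 to 17.1) without it, and *Pparg* was at 44.6 (37.7 to 52.3) and 27.7 (24.5 to 31.3). *Cidea* was at 11.0 (7.74 to 15.2) and 4.11 (2.94 to 5.60), and here the intervals did not overlap. *Lipe* was at 5.05 (2.94 to 8.09) and 2.67 (1.74 to 3.91), the opposite order to the female nuclei with intervals that overlapped.

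Outside the class, too, female nuclei with *Ucp1* more often had other genes of the set than nuclei without it. Among the 412 other female nuclei with *Ucp1*, 71.6% (67.0 to 75.9) had at least 1 more gene of the set, against 63.6% (62.0 to 65.3) of the 3285 without *Ucp1*, at median depths of 2724 and 2330 UMIs. After thinning to 1000 UMIs the shares were 80 of 169, 47.3% (39.6 to 55.1), and 33.3% (31.8 to 34.9). *Fabp4* made up most of this, as deposited at 52.7% (47.7 to 57.6) and 43.4% (41.7 to 45.1).

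Among female nuclei, the genes that were rare outside the class had the larger ratios. In the same female nuclei as deposited, *Cidea* was seen in 13.1% (10.00 to 16.8) with *Ucp1* and 7.25% (6.38 to 8.19) without it, *Cidec* in 5.58% (3.57 to 8.26) and 2.07% (1.61 to 2.62), *Plin1* in 5.10% (3.18 to 7.69) and 2.07% (1.61 to 2.62), and *Adipoq* in 5.10% (3.18 to 7.69) and 2.56% (2.04 to 3.16). After thinning *Cidea* was at 5.33% (2.46 to 9.87) and 2.91% (2.38 to 3.52), with intervals that overlapped. In the male library 45.5% (30.4 to 61.2) of 44 nuclei with *Ucp1* and 39.0% (37.6 to 40.3) of the rest had another gene. *Cidea* was in 8 of the 44, 18.2% (8.19 to 32.7), against 5.39% (4.77 to 6.06), and *Plin1* in 2 of the 44 against 0.495%. *Lipe* was at 18.2% and 9.89% and *Pparg* at 9.09% and 6.38%, with intervals that overlapped. *Fabp4*, at 11.4% and 11.0%, and *Ppargc1a*, at 18.2% and 18.7%, hardly differed, and *Cidec* and *Adipoq* were in 0 of the 44. The male nuclei with *Ucp1* had a median of 3480.5 UMIs and the rest 2640, and thinning left 11 male nuclei with *Ucp1*, too few to compare.

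The UMIs of the genes were also set against those of *Fabp4*. In the female library there were 26.8 *Ucp1* UMIs for every 100 *Fabp4* UMIs in the class (23.3 to 30.8) and 17.2 in all other nuclei (15.6 to 19.0). Over the 9 other female classes with at least 50 *Fabp4* UMIs this ratio ran from 13.2 in endothelial cell-like to 19.1 in granule neuron-like nuclei. *Plin1* behaved differently, with 26.6 per 100 *Fabp4* UMIs in the class (23.1 to 30.5), 3.48 in all other nuclei (2.81 to 4.26) and 1.99 to 5.83 over the 9 classes. In the male library the *Ucp1* ratio was 5.68 in the class (3.14 to 9.54) and 6.88 in all other nuclei (4.97 to 9.31), while that of *Plin1* was 23.1 (17.2 to 30.6) and 4.28 (2.82 to 6.25). Over the 6 other male classes with at least 50 *Fabp4* UMIs the *Ucp1* ratio ran from 3.80 (0.767 to 11.5) in fibroblast-like to 16.2 (8.02 to 30.05) in barrier fibroblast-like nuclei, on 3 and 12 *Ucp1* UMIs, with intervals that overlapped.

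**Figure D5:**
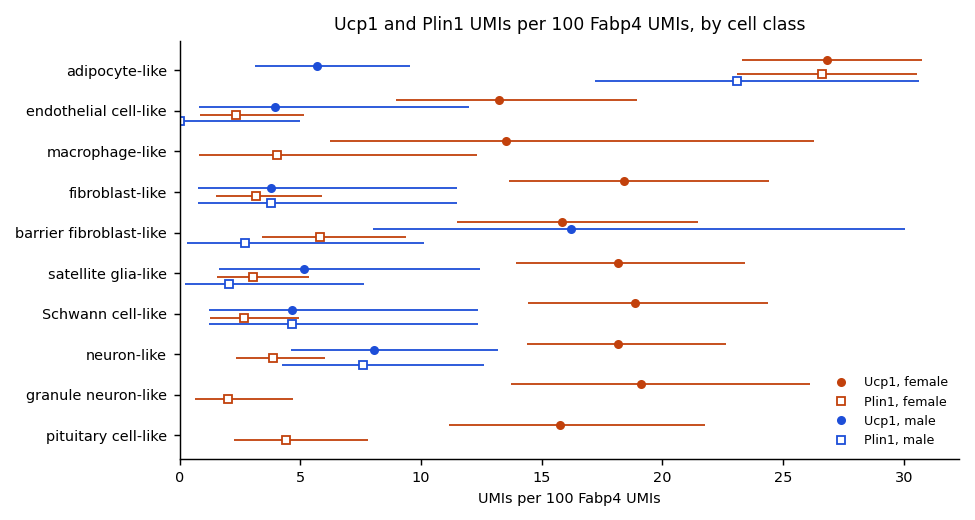
UMIs of *Ucp1* and *Plin1* per 100 *Fabp4* UMIs in each nucleus class of each library, with exact 95% intervals as bars. Outside the class *Ucp1* stayed between 13.2 and 19.1 in the 9 female classes shown, and *Plin1* between 1.99 and 5.83, both under their values of 26.8 and 26.6 in the adipocyte-like nuclei.

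The other genes had wider ratios outside the class. In the 9 female classes *Pparg* ran from 5.05 per 100 *Fabp4* UMIs in Schwann cell-like to 62.5 in neuron-like nuclei, *Lipe* from 6.12 to 55.6 in the same pair of classes, and *Ppargc1a* from 10.5 in endothelial cell-like to 79.9 in pituitary cell-like nuclei. *Cidec* ran from 1.35 to 5.58, under its 14.0 (11.6 to 16.8) in the female class. *Adipoq* ran from 1.35 to 5.05, which reached its 5.05 (3.71 to 6.73) in the female class. In the male library *Adipoq* was at 4.55 (2.32 to 8.07) in the class and 4.59 (3.07 to 6.61) in all other nuclei. The source of the *Ucp1* and *Fabp4* UMIs outside the class was not tested.

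Some class nuclei carried few UMIs of neuron, Schwann cell, endothelial cell and macrophage markers and held the adipocyte genes. Markers of skeletal muscle and of the remaining classes were not counted in this choice, so their RNA in these nuclei was not tested. Of 34 markers of neurons, Schwann cells, endothelial cells and macrophages, the class held a median of 6 UMIs per female and 9 per male nucleus, and 10 female and 0 male nuclei held fewer than 3. In those 10 nuclei *Ucp1* was at 5.18 per 10000 (3.02 to 8.29), *Plin1* at 12.2, *Pparg* at 50.6, *Fabp4* at 22.8, *Ppargc1a* at 21.6 and *Cidea* at 9.44.

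The genes most like *Ucp1* and *Plin1* were sought over 39 cluster and library profiles. Here the mixed cluster was kept whole, so its profiles also held skeletal muscle-like and mural cell-like nuclei. Only the 2686 genes with at least 50 UMIs in the adipocyte-like class were considered, a filter that favours genes high in the class. The Pearson correlations on a log scale share library and depth and are given as a description. With *Ucp1* the highest were those of *Thrsp* (0.92), *Fabp4* (0.91), *Lpl* (0.88), *Pck1* (0.86), *Cfd* (0.86), *Adipoq* (0.85) and *Ces1d* (0.85). *Plin1* was most like *Cidec* (0.95), *Ces1d* (0.95), *Pck1* (0.94), *Gm3289* (0.94), *Dgat2* (0.94) and *Slc27a2* (0.94). *Ppargc1a* was the least like either of them among the 9 genes, at 0.53 with *Ucp1* and 0.64 with *Plin1*.

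Genes of the thermogenic program other than the 10 were also high in the class. Of 22 such genes, 21 were at least 2-fold higher in the class than in all other nuclei in both libraries, against 14.1% of all genes. The exception was *Ckmt2*, a mitochondrial creatine kinase with 0 UMIs in the class. The median log2 ratio of the 22 genes was 3.37 for female and 3.60 for male nuclei. *Esrrg*, a nuclear receptor for oxidative metabolism, was at 17.8 per 10000 in female and 10.7 in male class nuclei. *Ppara*, the receptor that drives fatty acid oxidation, was at 14.5 and 16.1. *Ppargc1b*, the relative of *Ppargc1a*, was at 15.2 and 11.1, and *Ebf2*, a factor of brown fat precursors, at 14.0 and 13.4. Of 14 white-associated genes 10 could be compared, and 4 were higher, *Cfd*, *Npr3*, *Slc7a10* and *Retn*. *Cfd*, the secreted protease adipsin, was at 1.55 and 2.37. *Retn* rested on 4 female and 3 male UMIs in the class, and *Npr3* and *Slc7a10* on 5 male UMIs each. Some thermogenic calls rested on as few. *Elovl3* had 2 female and 0 male UMIs in the class, *Dio2* had 1 male UMI and *Otop1* had 2. *Cox7a1*, *Plin5* and *Acot11* had 5 male UMIs each. *Slc7a10* was a class marker. None of the 22 thermogenic genes was. These genes took part in the clustering, and a gene without a UMI in the class can pass through the added 0.5 UMIs. When at least 1 UMI in the class was required in each library, 7.61% of all genes were called, and 20 thermogenic and 4 white-associated genes were.

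Between the sexes, 4 of 20 thermogenic genes that could be compared were at least 2-fold higher in the female class nuclei and 0 in the male, against 8.76% and 9.18% of all genes, and their median log2 ratio was 0.44. *Dio2*, the deiodinase that activates thyroid hormone in brown fat, gave 87 female and 1 male UMI and was among the 5 most female-biased genes of the class, and the glycerol kinase gene *Gk* gave 461 and 27. The others were *Otop1*, a proton channel, with 25 and 2 UMIs, and the thioesterase gene *Acot11* with 53 and 5, and *Gk*, *Otop1* and *Acot11* are named after their values were seen. Of 5 white-associated genes that could be compared, 2 were at least 2-fold higher in the female class nuclei and 0 in the male. The median log2 ratio of these 5 was 0.15. *Dio2* was also higher in the other female nuclei, at a log2 ratio of 1.90. *Prl*, the pituitary hormone prolactin, headed the same order with 65 and 0 UMIs, and it was likewise higher in the other female nuclei, at 3.87. The rest of the 5 were *Kcnd2* with 187 and 4 UMIs, *Ntm* with 91 and 1 and *Bicc1* with 57 and 1. The 5 most male-biased genes, again with female and then male UMIs, were *Ngfr* (16 and 35), *Tubb2b* (19 and 38), *Tac1* (25 and 37), *Bex2* (34 and 45) and *Tspan8* (31 and 37). Each of these genes leaned the same way in all other nuclei. There the female over male log2 ratios were 2.64 for *Kcnd2*, 2.60 for *Ntm* and 0.70 for *Bicc1*. Those of the male-biased genes ran from -1.12 for *Tspan8* to -0.73 for *Tac1*. *Ucp1* held rank 13 and *Ppargc1a* rank 49 among the 2684 genes with at least 50 UMIs in the class, while *Pparg* was at rank 1413 and *Cidec* at 1517.

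Most lipid handling genes were high in the class, and how many differed 2-fold between the libraries varied by list. The lists share genes with the 20 markers that set the class, whose higher level was fixed by that choice. Beside the counts stand the 14.1% of all genes that were called higher in the class and the 8.76% and 9.18% called higher in female and in male class nuclei. Of 16 lipid droplet and lipolysis genes, 14 were at least 2-fold higher in the class in both libraries, *Cideb* among them with 0 UMIs in the class. Of the 14, 3 were class markers (*Plin4*, *Pnpla2* and *Pde3b*), and without these 11 of 13 were higher. Between the sexes 0 of the 13 genes with enough UMIs differed 2-fold. *Prkar2b*, a regulatory subunit of protein kinase A, was at 21.7 and 18.5 per 10000, and *Pde3b*, the phosphodiesterase through which insulin restrains lipolysis, at 12.7 and 14.4. Of 17 lipogenesis genes 11 were higher, with *Acsl1*, which activates fatty acids, at 19.96 and 19.5, but 7 of the 11 were class markers, *Acsl1* included, and of the 9 genes that were not markers 4 were higher. Between the libraries 3 of 17 (*Elovl6*, *Fasn* and *Gpam*, named after their values were seen) were at least 2-fold higher in the female nuclei. Of 9 genes of fatty acid uptake 6 were higher, with *Cd36*, a fatty acid transporter, at 12.1 and 10.0, and *Lpl*, lipoprotein lipase, at 12.3 and 8.17, both class markers, and without them 4 of 7 were higher. Between the libraries 8 uptake genes could be compared. Of these, 1 was at least 2-fold higher in the female and 1 in the male class nuclei.

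Transcription factors and receptors of fat followed the class in part. Of 13 adipogenic transcription factors 7 were higher, with *Mlxipl*, the carbohydrate response factor, at 4.89 and 3.82 per 10000 and *Cebpa*, the partner of *Pparg* in adipocyte differentiation, at 0.644 and 0.840. *Mlxipl* was a class marker, and without it 6 of 12 were higher. Of 16 adipose receptors 10 were higher, with the growth hormone receptor *Ghr* at 15.02 and 24.5 and the insulin receptor *Insr* at 4.51 and 5.12. *Ghr*, *Adrb3*, *Tshr* and *Acvr1c* were class markers, and without them 6 of 12 were higher. Between the libraries 3 of 13 receptors (*Tshr*, *Adora1* and *Ptger3*, named after their values were seen) were at least 2-fold higher in the male nuclei, against 9.18% of all genes.

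Of 17 respiratory chain and citric acid cycle genes, none of them a class marker, 6 were higher in the class, against 14.1% of all genes. Of 10 preadipocyte genes 1 was higher, *Fmo2*, a share near that of all genes. Between the libraries 2 of the 17 respiratory chain and citric acid cycle genes were at least 2-fold higher in the male class nuclei, near the share of all genes, and 0 in the female. The median female over male log2 ratio of the 17 was -0.53, against -0.01 for all genes and 0.44 for the thermogenic genes.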

How the data were processed

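Single-nucleus libraries were made with the 10x Genomics 3' v3.1 chemistry. The authors aligned reads to mm10 plus a transgene sequence with Cell Ranger 7.1.0, introns included, removed debris and possible doublets with Cell Ranger and DIEM (debris score under 0.5, over 250 genes, over 1000 UMIs), equalised the libraries for mapped reads and deposited whole UMI counts per gene and nucleus. That equalisation may lower a nucleus below the minimum. No doublet caller was run here.

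The deposited barcodes end in a library number. The numbers were assigned to the sexes by the number of nuclei that the study states for each.

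After scaling of each nucleus to the median total and a log2 transform, 10 principal components, 243 neighbours and the Louvain method gave 20 clusters from 23473 genes. The 10 genes, 6 sex-linked genes and 115 genes that the study lists as differing between the sexes were left out. A cluster took the name of the marker list with the highest mean fold if at least 3 of its genes reached 1.5-fold. The mixed cluster was divided again with 15 neighbours, a step added after the data were seen.

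Levels are summed UMIs per 10000 with exact Poisson intervals, shares carry Clopper-Pearson intervals, and ratios of levels carry exact conditional binomial intervals where given, all at 95%. Log2 ratios and the 2-fold calls have 0.5 UMIs added to both sums, while ratios printed as a fold or a percentage have none added. Genes needed at least 20 UMIs. Calls were differences of at least 2-fold, with no test. The ratio, call and interval steps were tested on simulated Poisson counts, which hold no added spread between nuclei. The clustering and the naming of classes were not tested in this way. Named genes were the 10, up to 4 of each list by level, the 5 most like *Ucp1* or *Plin1*, and the 5 most female- or male-biased. The members and lists were chosen with earlier results of these data known. Python 3.11.15, numpy 2.4.6, scipy 1.17.1, pandas 2.3.3, scikit-learn 1.9.0, igraph 0.11.9 and matplotlib 3.10.9 were used.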

Additional observations from a re-analysis of the deposited data

How the results depend on the processing

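Of 95 values of the main results under the alternatives, 89 stayed within their counting interval or within 1.5 times the count and 6 moved. Many were counts that this rule could hardly move. The 9 genes highest in the class, for example, fell to 8 at the lowest, which counted as staying. Direction was checked only for the *Ucp1* and *Ppargc1a* ratios, and none of these changed direction. Thinning to 1000 UMIs moved the share of class nuclei with *Ucp1* and also *Cidea* to 48.7% (from 89.1%), that with *Ucp1* and also *Plin1* to 48.7% (from 79.7%), and the share of female class nuclei with *Ucp1* to 38.3% (from 60.6%). Taking the whole cluster as the class moved the last to 47.5%. In the male library alone, with 7 nuclei with *Ucp1*, both *Cidea* and *Plin1* were at 100%. The female over male log2 ratio was 2.17 to 2.79 for *Ucp1* and 1.46 to 1.87 for *Ppargc1a* over all alternatives, and the highest *Ucp1* value came from leaving out the nucleus with most *Ucp1* UMIs in each library, an alternative chosen after seeing the data. The class held 79 to 122 female and 33 to 43 male nuclei over the other ways of building it. Of the other values 540 stayed and 104 moved. Another alternative left out class nuclei with 3 or more UMIs of neuron, Schwann cell, endothelial cell or macrophage markers. It left 10 female and 0 male nuclei, so no female over male value could be had from it. No paired analysis was possible because each sex was 1 library and the libraries carry no replicate numbers. *Lep* (4 UMIs in all), male *Adipoq* (12 UMIs in the class) and male *Ucp1* (15) rested on few UMIs. With 1 library per sex no replicate could be left out.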
